A study of Homo sapiens with 24 samples.

Results

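The 8 human troponin genes TNNI1, TNNI2, TNNI3, TNNT1, TNNT2, TNNT3, TNNC1 and TNNC2 were described across 24 bulk RNA sequencing libraries of heart muscle cultures. They were chosen by name as the full set of fast, slow and cardiac isoforms of the 3 troponin subunits, and all 8 had a row among the 62757 genes of the count table. The cultures were embryoid bodies grown from 1 reporter line of HES3, a human embryonic stem cell line, which carries NKX2-5GFP and NR2F2mCherry in every group, and they were kept for at most 14 days in a Wnt-modulating cardiac protocol. Cells had been edited with CRISPR-Cas9 at LHX2, ZNF503 or ZNF711, or at the control target TRAC, and each of these 4 genotypes was taken through the condition labelled VM, without retinoic acid, and the condition labelled AM, with retinoic acid added at day 4. AM was taken to mean atrial and VM to mean ventricular. The 8 groups, AM TRAC, AM LHX2, AM ZNF503, AM ZNF711, VM TRAC, VM LHX2, VM ZNF503 and VM ZNF711, held 3 libraries each, numbered 1, 2 and 3. The labels do not say whether these were separate cultures, or how many clones were used, so the p-values measure the spread between these libraries only, which may be technical.

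Troponin sits on the actin thin filament of striated muscle as a complex of 3 subunits. Troponin C binds calcium, troponin I holds the filament in the inhibited state, and troponin T anchors the complex to tropomyosin. Each subunit has isoforms from separate genes. TNNI3 encodes the cardiac troponin I that prevails in the adult heart, TNNI1 the slow skeletal troponin I that the fetal heart also uses, and TNNI2 the fast skeletal form. TNNT2 encodes the cardiac, TNNT1 the slow skeletal and TNNT3 the fast skeletal troponin T. TNNC1 serves both heart and slow skeletal muscle, and TNNC2 encodes the fast skeletal troponin C. The exchange of TNNI1 for TNNI3 is a textbook sign of maturing heart muscle.

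The troponin genes lie in pairs on 3 chromosomes, each pair 1 troponin I and 1 troponin T gene. In GENCODE 29 on GRCh38, TNNI3 at chr19:55151767-55157773 and TNNT1 at chr19:55132794-55149354 are on the minus strand with 2.41 kb between them. TNNI1 at chr1:201403768-201429866 and TNNT2 at chr1:201359008-201377762 are on the minus strand with 26.0 kb between them. LAD1, at chr1:201373244-201399915, overlaps TNNT2 and reaches into that gap. TNNI2 at chr11:1838989-1841680 and TNNT3 at chr11:1919562-1938706 are on the plus strand with 77.9 kb between them, which wholly holds 2 other protein-coding genes. TNNC1 is at chr3:52451102-52454070 and TNNC2 at chr20:45823214-45833745, both on the minus strand. The neighbours TNNI3 and TNNT1 had r = -0.70 between their log2 levels over the 24 libraries, 0.15 over the 12 in AM and -0.48 over the 12 in VM. Exons of TNNT2 share 81 bases with LAD1 on the same strand, which had 29 to 210 counts per library against 561 to 2978 for TNNT2. Exons of TNNI3 share 496 bases with AC010327.1 on the same strand, and those of TNNI1 share 300 bases with AC096677.3 on the other strand. These overlapping genes had 0 counts in every library. How reads in shared bases were counted is not given, so this does not show whether TNNI3 lost reads there.

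The start regions of TNNI3, TNNT1 and TNNT2 are shown from RefSeq on GRCh38.p14, where 3 of the 8 members had an entry. The neighbours TNNI3 and TNNT1 had fitted AM to VM differences of opposite sign in every genotype, but both were called in ZNF711 alone. The level of TNNT2 followed the replicate number. Each run is the 250 bases before the RefSeq start, 5′ to 3′ on the minus strand, at chr19:55157733-55157982 for TNNI3, chr19:55149207-55149456 for TNNT1 and chr1:201377681-201377930 for TNNT2; GENCODE 29 places the outer end of each gene inside its run. Capitals mark matches, searched on both strands. The TATA box was searched as TATAAA. The E-box, which many muscle factors bind, was CANNTG. The M-CAT element of many muscle promoters was CATTCC. The GATA motif was AGATAA. The nuclear receptor half-site, related to the retinoic acid response element, was AGGTCA. No matches overlapped.
TNNI3: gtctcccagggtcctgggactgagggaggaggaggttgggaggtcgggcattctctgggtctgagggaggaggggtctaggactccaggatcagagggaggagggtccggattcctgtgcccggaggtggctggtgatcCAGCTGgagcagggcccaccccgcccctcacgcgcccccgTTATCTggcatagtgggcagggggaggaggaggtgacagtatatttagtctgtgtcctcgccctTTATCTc
TNNT1: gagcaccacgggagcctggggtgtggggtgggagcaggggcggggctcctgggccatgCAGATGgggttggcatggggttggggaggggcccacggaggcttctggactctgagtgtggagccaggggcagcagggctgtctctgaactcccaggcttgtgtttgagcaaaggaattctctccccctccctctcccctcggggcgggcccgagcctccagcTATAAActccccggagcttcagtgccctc
TNNT2: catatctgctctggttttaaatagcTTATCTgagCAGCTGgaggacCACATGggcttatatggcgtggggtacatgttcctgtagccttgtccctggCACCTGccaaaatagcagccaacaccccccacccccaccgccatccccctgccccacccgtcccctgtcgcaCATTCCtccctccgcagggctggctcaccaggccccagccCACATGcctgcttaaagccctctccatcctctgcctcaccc
TNNI3 had 1 E-box and 2 GATA motifs, TNNT1 had 1 TATA box and 1 E-box, and TNNT2 had 4 E-boxes, 1 M-CAT element and 1 GATA motif. None of the runs held the letters of the half-site. Over 35116 such regions of the same length, 10.7% held the TATA box, 61.8% the E-box, 11.9% the M-CAT element, 9.17% the GATA motif and 12.1% the half-site. The matches describe letters, not binding.

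Library totals ran from 2899786 to 7438010 counts. Of the targeted genes, ZNF711 RNA was at 25.8 to 33.8 CPM (read counts scaled to library size) in VM ZNF711 against 34.5 to 47.7 in VM TRAC, but at overlapping levels in AM, and LHX2 RNA was at most 4.01 CPM in the groups compared. ZNF503 RNA was higher in the libraries labelled ZNF503, at 254 to 365 CPM in AM against 103 to 122 in AM TRAC and at 19.1 to 45.1 in VM against 8.77 to 16.2 in VM TRAC. The name of the targeted gene is therefore used below as a label only. The VM libraries numbered 3, and all 3 of VM ZNF711, stood apart in their markers. A list of 15 cardiomyocyte genes summed to 39093 to 44015 CPM in the 6 other VM libraries and to 12588 to 22381 CPM in these 6, while 8 hepatic and endoderm genes summed to 1169 to 2550 CPM and to 6759 to 19394 CPM. In bulk RNA, fewer cells of a type and less RNA per cell cannot be told apart.

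Of the 8 genes, 6 had enough counts to be tested, and the fast skeletal genes TNNI2 and TNNC2 did not. TNNI2 had 12 counts in all 24 libraries together and was at 0 in 20 of them. Its counts were 5 and 4 in VM ZNF503 replicates 2 and 3, 2 in AM TRAC replicate 3 and 1 in AM ZNF503 replicate 2. TNNC2 had 81 counts in all, at most 10 in a library, and was at 0 in 4 libraries, 3 of which were the AM LHX2 libraries. A count of 0 allowed up to 3 counts, which is 0.447 to 0.963 CPM depending on the library. Neither gene is compared between groups. Most other skeletal muscle genes were also low. Of 12 such markers, MYL1 was at 0 in all 24 libraries, MYF5 in 23, MYH8 in 22 and MYOD1 in 17. MYOG was at 0 in 5 libraries, PAX7 in 4 and PAX3 in 7, and their highest levels were 4.42, 3.76 and 16.3 CPM. Embryonic myosin MYH3 was counted in every library at 1.41 to 11.2 CPM.

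Per length of the gene's principal transcript, the median level over the 24 libraries was highest for the slow or cardiac isoforms. It was 213 to 253 CPM per kb for TNNT2, depending on which of 2 principal transcripts was taken, 144 for TNNC1 and 95.6 to 470 for TNNI1, whose 3 principal transcripts run from 1.10 to 5.41 kb. The order of TNNI1 against TNNT2 and TNNC1 therefore depended on the transcript. The slow skeletal TNNT1 had a median of 6.66 CPM per kb, the cardiac TNNI3 6.0, TNNT3 2.31 and TNNC2 0.962. In each of the 24 libraries TNNI1 had more counts than TNNI3, and TNNT2 more than TNNT1 or TNNT3.

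**Figure D1:**
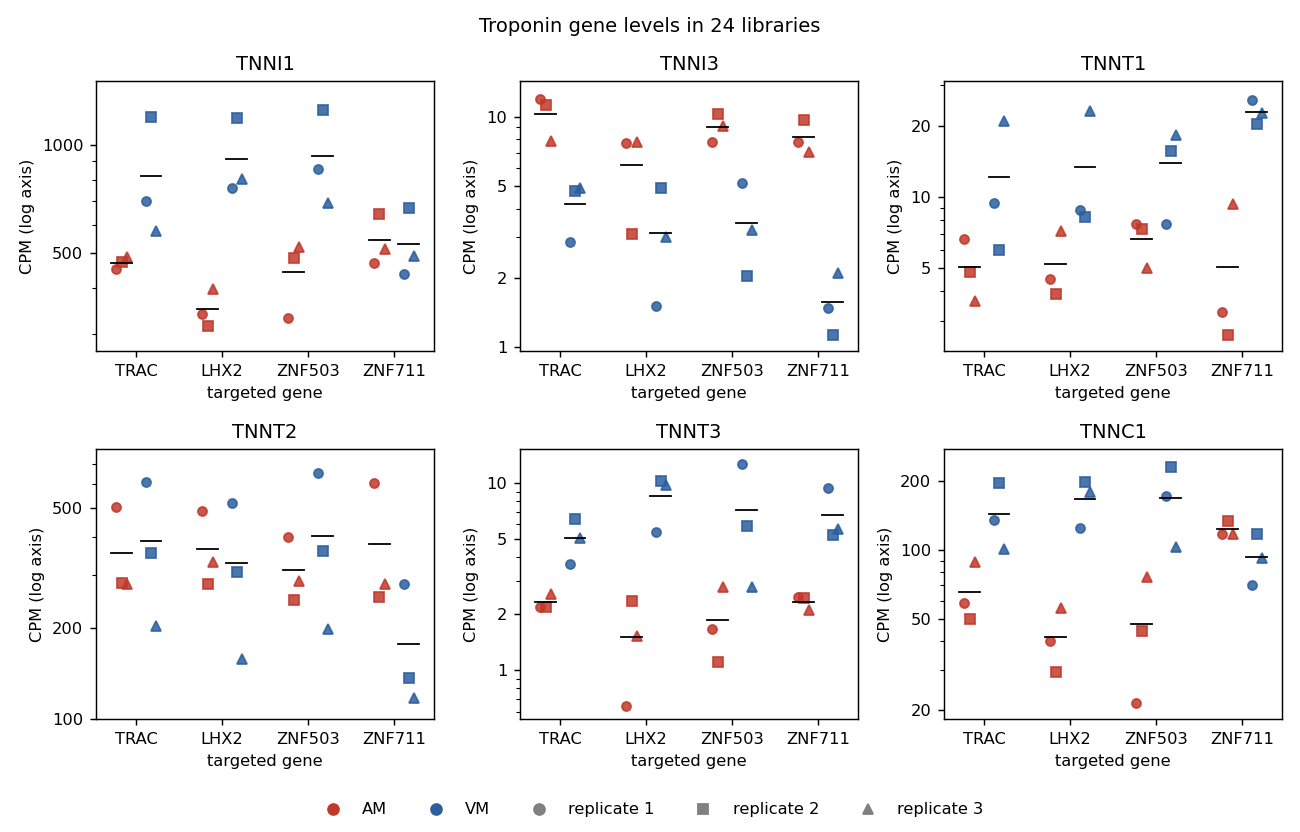
Levels of the 6 tested troponin genes in each of the 24 libraries, in CPM on a log axis, by targeted gene (x axis), condition (red AM, blue VM) and replicate number (circle 1, square 2, triangle 3), with black bars at the group means. The mean of TNNI3 lies higher in AM and that of TNNT3 higher in VM in every genotype, while those of TNNI1 and TNNC1 lie higher in VM in all genotypes but ZNF711.

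TNNI1, the fetal-type troponin I, was lower in AM than in VM in 3 of the 4 genotypes. On the CPM scale, with library sizes scaled by TMM (trimmed mean of M), AM TRAC replicates 1, 2 and 3 had 452, 473 and 490 CPM and VM TRAC had 697, 1189 and 575. AM LHX2 had 339, 315 and 398 CPM against 757, 1182 and 801 in VM LHX2, and AM ZNF503 had 332, 485 and 519 against 855, 1250 and 688 in VM ZNF503. The AM and VM libraries did not overlap in any of these 3 genotypes. In ZNF711 they did, at 469, 644 and 515 CPM in AM and 440, 666 and 491 in VM. The fitted log2 fold change of AM over VM was -0.80 ± 0.25 (SE, n = 3 and 3 libraries) in TRAC, with an edgeR adjusted p of 0.0402. It was -1.38 ± 0.25 in LHX2 (edgeR adjusted p = 0.000793) and -1.06 ± 0.25 in ZNF503 (edgeR adjusted p = 0.00757). In ZNF711 it was 0.03 ± 0.25 (edgeR adjusted p = 0.961), with a 95% interval of -0.49 to 0.55.

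TNNI3, the adult-type cardiac troponin I, went the other way. AM TRAC had 11.9, 11.2 and 7.83 CPM and VM TRAC 2.87, 4.74 and 4.92. AM ZNF503 had 7.74, 10.3 and 9.10 CPM against 5.16, 2.04 and 3.22, and AM ZNF711 had 7.77, 9.66 and 7.03 against 1.48, 1.13 and 2.09. In these 3 genotypes every AM library was above every VM library. AM LHX2 had 7.71, 3.10 and 7.80 CPM against 1.5, 4.89 and 3.0 in VM LHX2, where replicate 2 of AM fell inside the VM range. The counts behind these values were 6 to 72 per library, so counting error is large for single libraries. The log2 fold change of AM over VM was 1.30 ± 0.42 in TRAC (edgeR adjusted p = 0.0433), 1.38 ± 0.43 in ZNF503 (edgeR adjusted p = 0.0424) and 2.37 ± 0.47 in ZNF711 (edgeR adjusted p = 0.00128). In LHX2 it was 0.99 ± 0.44 (edgeR adjusted p = 0.193). The VM ZNF711 libraries held the lowest group mean, 1.57 ± 0.486 CPM (SD, n = 3), against 10.3 ± 2.19 CPM in AM TRAC, the highest.

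Both TRAC calls for troponin I were lost in most fits that left out a library. With 1 library left out at a time, TNNI1 stayed lower in AM at -0.99 to -0.42 but was called in 2 of 6 fits, those without VM TRAC replicate 1 or 3, and without VM TRAC replicate 2 the edgeR adjusted p was 0.305. TNNI3 stayed higher at 1.09 to 1.46 and was called in 1 of 6 fits, that without AM TRAC replicate 3, with an edgeR adjusted p of 0.0494 to 0.145. In ZNF503, TNNI3 was called in 1 of 6 such fits, that without VM ZNF503 replicate 1, and TNNI1 in 4 of 6, the exceptions being AM replicate 1 and VM replicate 2. The LHX2 call for TNNI1 and the ZNF711 call for TNNI3 held in 6 of 6.

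Since both genes are counted in the same library, their ratio does not depend on scaling between libraries. It was 2.64, 2.38 and 1.60 counts of TNNI3 per 100 counts of TNNI1 in AM TRAC replicates 1, 2 and 3, and 0.412, 0.399 and 0.854 in VM TRAC. AM LHX2 had 2.27, 0.984 and 1.96 against 0.199, 0.414 and 0.375 in VM LHX2. AM ZNF503 had 2.33, 2.11 and 1.75 against 0.603, 0.163 and 0.469 in VM ZNF503, and AM ZNF711 had 1.66, 1.5 and 1.36 against 0.337, 0.169 and 0.426 in VM ZNF711. The AM and VM groups did not overlap in any genotype, and the lowest of the 12 AM libraries, AM LHX2 replicate 2 at 0.984, was above the highest of the 12 VM libraries, VM TRAC replicate 3 at 0.854. These 2 libraries cannot be told apart at their depth: the TNNI3 share of both genes was 0.975% with an exact Clopper-Pearson 95% interval of 0.505% to 1.70% in the first, and 0.847% with 0.584% to 1.19% in the second. Such intervals cover counting error only, as reads without molecular identifiers are not independent molecules.

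On the log2 scale the ratio was higher in AM by 2.05 in TRAC, 2.38 in LHX2, 2.52 in ZNF503 and 2.37 in ZNF711. The two-sided exact permutation p was 0.1 in each genotype, which is the smallest that 3 against 3 libraries can give, and 0.25 after Benjamini-Hochberg adjustment over 10 comparisons of this ratio. Over the 4 genotypes together the difference was 2.33, a 5.03-fold higher ratio, with an exact permutation p of 1.25e-05 when labels were exchanged within genotypes, the smallest that 160000 arrangements can give. The ratio was higher in AM in 12 of 12 pairs of libraries with the same genotype and number, with an exact sign-flip p of 0.000488, the smallest for 12 pairs. Libraries of 1 number share deviations across the groups (given below), so these pairs are not 12 independent ones. The permutation within genotypes also takes the libraries as independent, so its p has the same limit. With the 3 numbers as units, the difference was 2.61, 2.67 and 1.72 for numbers 1, 2 and 3, and the smallest exact sign-flip p that 3 units allow is 0.25.

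**Figure D2:**
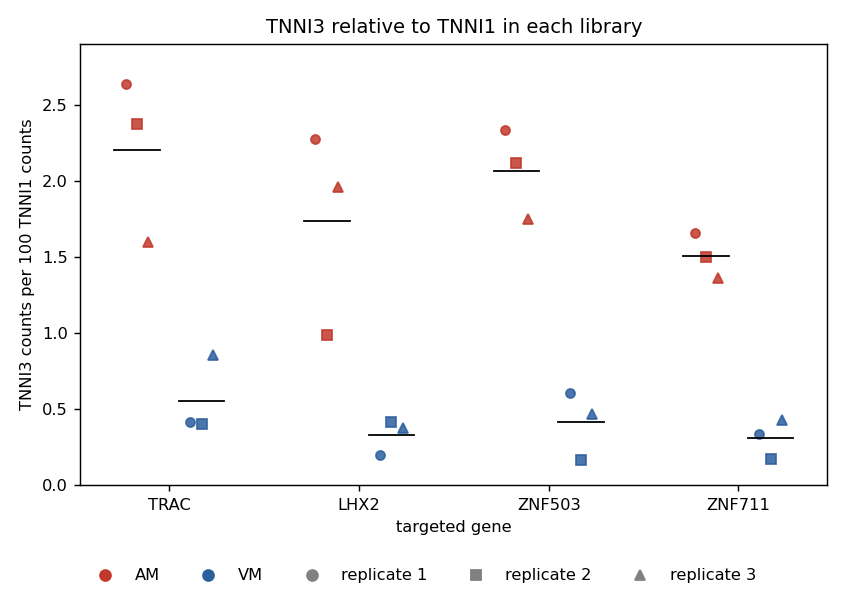
TNNI3 counts per 100 TNNI1 counts in each library (y axis, linear) by targeted gene (x axis), with red for AM, blue for VM, marker shapes for the replicate number and black bars at the group means. The 12 AM libraries run from 0.984 to 2.64, above the 12 VM libraries, which run from 0.163 to 0.854.

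In each of the 6 comparisons of a targeted group with TRAC the ratios of the libraries overlapped. In AM its log2 difference from TRAC was -0.40 for LHX2, -0.07 for ZNF503 and -0.52 for ZNF711. In VM the values were -0.73, -0.53 and -0.84 in the same order. The exact permutation p lay between 0.2 and 0.7, the Benjamini-Hochberg adjusted values between 0.4 and 0.7, without pairing by number. By same-numbered pairs, ZNF711 was below TRAC in 3 of 3 in AM and 3 of 3 in VM, and LHX2 and ZNF503 in 2 of 3 in each condition; 3 pairs allow no exact p below 0.25. All 6 differences were below 0, but the 3 within a condition share the same TRAC libraries.

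TNNT2, the cardiac troponin T, did not differ between AM and VM in the fit over all groups. Its level was 504, 282 and 281 CPM in AM TRAC and 611, 356 and 203 in VM TRAC. AM LHX2 had 488, 280 and 330 CPM against 520, 307 and 157, and AM ZNF503 had 402, 248 and 286 against 654, 361 and 199. AM ZNF711 had 605, 253 and 280 CPM against 279, 136 and 117 in VM ZNF711. The groups overlapped in all 4 genotypes, and replicate 1 was the highest library in each of the 8 groups. The log2 fold change of AM over VM was -0.13 ± 0.53 in TRAC, 0.15 ± 0.53 in LHX2 and -0.37 ± 0.53 in ZNF503, with edgeR adjusted p of 0.789 to 0.92. In ZNF711 it was 1.10 ± 0.54 (edgeR adjusted p = 0.199), and with the replicate number as a block it was 1.10 ± 0.24 (edgeR adjusted p = 0.00364), a fit that called 23.4% of all genes. With a separate block in each condition the TNNT2 difference was 0.84 ± 0.13 in ZNF711 (edgeR adjusted p = 1.07e-05) and -0.49 ± 0.13 in ZNF503 (edgeR adjusted p = 0.00828), where 16.5% and 12.5% of all genes were called. With the common block the ZNF503 value was -0.25 ± 0.24 (edgeR adjusted p = 0.582).

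TNNT1, the slow skeletal troponin T, had its highest level in VM ZNF711, at 26.0, 20.5 and 22.8 CPM. The libraries numbered 3 reached the same level in VM TRAC, which had 9.44, 5.98 and 21.2 CPM, and in VM LHX2, which had 8.84, 8.29 and 23.2, while VM ZNF503 had 7.74, 15.7 and 18.5. AM TRAC had 6.69, 4.84 and 3.64 CPM and AM LHX2 4.50, 3.88 and 7.23, while AM ZNF503 had 7.74, 7.32 and 5.01 and AM ZNF711 3.27, 2.62 and 9.37. AM and VM overlapped in TRAC and narrowly in ZNF503, and not in LHX2 and ZNF711. The log2 fold change of AM over VM was -2.21 ± 0.50 in ZNF711 (edgeR adjusted p = 0.00449), where it was called in 6 of 6 fits that left out 1 library. It was -1.28 ± 0.49 in TRAC (edgeR adjusted p = 0.0962), -1.34 ± 0.50 in LHX2 (edgeR adjusted p = 0.105) and -1.06 ± 0.48 in ZNF503 (edgeR adjusted p = 0.21). In LHX2 the replicate block gave -1.30 ± 0.42 (edgeR adjusted p = 0.0348), where 15.7% of all genes were called, and a block in each condition -0.91 ± 0.51 (edgeR adjusted p = 0.294). The libraries numbered 3 weighed on these values: it was -0.60 without VM TRAC replicate 3 and -0.69 without VM LHX2 replicate 3. Without VM TRAC replicate 2 the TRAC value was -1.60 and was called (edgeR adjusted p = 0.0403).

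The 6 VM libraries with low cardiomyocyte and high hepatic marker sums were the 6 highest in TNNT1, at 18.5 to 26.0 CPM, followed by VM ZNF503 replicate 2 at 15.7. Over the 12 VM libraries, log2 TNNT1 had r = 0.82 with the log2 sum of the hepatic and endoderm markers, r = 0.87 with that of 8 fibroblast markers and r = -0.85 with that of the cardiomyocyte markers. Over the 12 AM libraries the same values were -0.18, 0.17 and -0.59. The 12 skeletal muscle markers summed to 16.3 to 25.2 CPM in the 3 VM ZNF711 libraries and to 3.62 to 11.9 in all others, with r of 0.71 to log2 TNNT1 in VM and 0.56 in AM. Of the 3 of these markers that were tested between VM ZNF711 and VM TRAC, PAX3 was at 1.89 ± 0.65 and PAX7 at 2.79 ± 1.03 (edgeR adjusted p = 0.318 and 0.353), both of which also mark the neural tube and crest, and MYH3 was at -0.18 ± 0.54 (edgeR adjusted p = 0.943). These correlations describe libraries that share genotypes and numbers, and the part of other cell types in the TNNT1 level was not tested.

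TNNT3, the fast skeletal troponin T, was low but higher in VM throughout. AM TRAC had 2.17, 2.19 and 2.55 CPM against 3.69, 6.39 and 5.07 in VM TRAC, and AM LHX2 had 0.642, 2.33 and 1.52 against 5.45, 10.2 and 9.81. AM ZNF503 had 1.65, 1.10 and 2.79 CPM against 12.7, 5.92 and 2.79, and AM ZNF711 had 2.45, 2.42 and 2.08 against 9.40, 5.27 and 5.64. The groups did not overlap in any genotype, though in ZNF503 the highest AM and the lowest VM library nearly met. Counts were 2 to 54 per library. The log2 fold change of AM over VM was -2.45 ± 0.53 in LHX2 (edgeR adjusted p = 0.0035), -1.93 ± 0.51 in ZNF503 (edgeR adjusted p = 0.015) and -1.52 ± 0.51 in ZNF711 (edgeR adjusted p = 0.046). In TRAC it was -1.13 ± 0.50 (edgeR adjusted p = 0.158). The LHX2 call held in 6 of 6 fits without 1 library and the ZNF503 call in 3, being lost without AM replicate 1 or 2 or VM replicate 1. The ZNF711 call was lost in all 6.

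Ratios within a library set the skeletal forms of troponin T against TNNT2. TNNT1 was at 0.541 to 3.35 counts per 100 TNNT2 counts in the 12 AM libraries, with a median of 1.55, and at 1.18 to 19.4 in the 12 VM libraries, with a median of 6.83. The highest values were 19.4 and 15, in VM ZNF711 replicates 3 and 2, followed by 14.8 in VM LHX2 replicate 3 and 10.4 in VM TRAC replicate 3. TNNT3 was at 0.132 to 0.975 per 100 TNNT2 counts in AM and 0.604 to 6.23 in VM. TNNI2 did not exceed 0.125 counts per 100 TNNI1 counts, and TNNC2 did not exceed 3.07 per 100 TNNC1 counts, its value in AM TRAC replicate 1.

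TNNC1, the troponin C of heart and slow muscle, followed TNNI1. It was at 58.9, 49.8 and 88.6 CPM in AM TRAC and 135, 196 and 101 in VM TRAC. AM LHX2 had 39.8, 29.2 and 55.5 CPM against 125, 199 and 179, and AM ZNF503 had 21.4, 44.3 and 76.1 against 172, 231 and 104. In these 3 genotypes all AM libraries lay below all VM libraries. In ZNF711 the order was the other way, with overlap, at 118, 133 and 118 CPM in AM and 70.2, 118 and 92.4 in VM. The log2 fold change of AM over VM was -2.0 ± 0.40 in LHX2 (edgeR adjusted p = 0.00273) and -1.84 ± 0.39 in ZNF503 (edgeR adjusted p = 0.0044), and both calls held in 6 of 6 fits without 1 library. In TRAC it was -1.13 ± 0.38 (edgeR adjusted p = 0.063, and 0.0466 with a block in each condition, where 14.7% of all genes were called), and in ZNF711 it was 0.39 ± 0.38 (edgeR adjusted p = 0.56). DESeq2 called TNNC1 in TRAC (DESeq2 adjusted p = 0.0101), and the share of all genes that it called is not given here. Without the libraries numbered 3 the TRAC value was -1.61 ± 0.33 (edgeR adjusted p = 0.00572). Over the 24 libraries log2 TNNC1 and log2 TNNI1 had r = 0.90, with 0.85 in AM and 0.95 in VM, whereas TNNI1 and TNNT2 had r = 0.00, with -0.37 in AM and 0.41 in VM.

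Counted together, 2 of the 6 tested troponin genes were called between AM and VM in TRAC, against 11.3% of all 17724 genes tested. The LHX2 comparison called 3 of 6 against 8.56%, that in ZNF503 called 4 of 6 against 8.86%, and that in ZNF711 called 3 of 6 against 13.2%. Without the libraries numbered 3 the counts were 2, 3, 3 and 2 of 6, against 8.72%, 7.47%, 7.99% and 9.32% of all genes tested in that fit. The genes changed: TNNI3 was lost in TRAC and ZNF503 (edgeR adjusted p = 0.0885 and 0.21) and TNNT3 in ZNF711 (edgeR adjusted p = 0.118). TNNC1 was gained in TRAC (edgeR adjusted p = 0.00572). The libraries did not overlap for 4, 4, 4 and 3 of the 6 genes, against 26.1%, 23.9%, 23.5% and 32.9% of all genes. The 6 genes had a median log2 fold change of -0.96 in TRAC, -1.36 in LHX2, -1.06 in ZNF503 and 0.21 in ZNF711, while the median of all genes was -0.03, 0.00, -0.00 and 0.00. The hepatic marker sum was 136 to 1571 CPM in the AM libraries and 1169 to 19394 in the VM libraries, the fibroblast sum 4138 to 7319 and 1710 to 4921, and the part of these cells in the AM to VM differences was not tested.

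**Figure D3:**
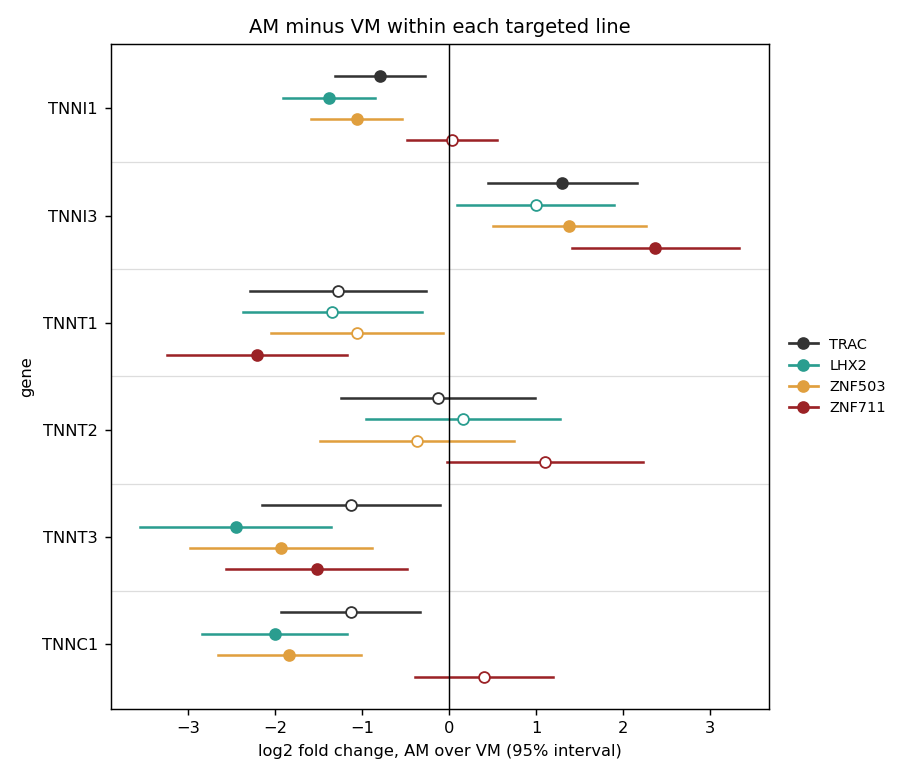
Fitted log2 fold change of AM over VM (x axis) for the 6 tested troponin genes in each of the 4 genotypes, with 95% intervals; filled points have an edgeR adjusted p below 0.05. TNNI3 lies to the right in every genotype, TNNT1 and TNNT3 lie to the left, and TNNI1 and TNNC1 are near or above 0 in ZNF711 alone among the genotypes.

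The other thin filament genes did not move as 1 block. Of 12 on a list of actins, tropomyosins, caps and nebulins, 11 were tested, and in TRAC 1 was called higher and 3 lower in AM, with a median log2 fold change of -0.03. The giant filament ruler NEB rose in AM by 2.41 ± 0.34 (edgeR adjusted p = 2.66e-05), while the pointed-end proteins LMOD2, at -2.04 ± 0.55 (edgeR adjusted p = 0.0147), and TMOD1, at -0.97 ± 0.28 (edgeR adjusted p = 0.0273), and the nebulin relative NEBL, at -1.16 ± 0.24 (edgeR adjusted p = 0.00216), were lower. LHX2 had 1 higher and 4 lower, ZNF503 had 1 higher and 3 lower, and ZNF711 had 4 higher and 0 lower, with medians of -0.33, -0.22 and 0.16. In ZNF711 those higher in AM were NEB at 2.11 ± 0.34 (edgeR adjusted p = 0.000162), the cardiac actin ACTC1 at 1.14 ± 0.31 (edgeR adjusted p = 0.0152), and the tropomyosins TPM1 at 0.70 ± 0.19 (edgeR adjusted p = 0.0134) and TPM2 at 0.50 ± 0.12 (edgeR adjusted p = 0.00715).

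Of 15 cardiomyocyte markers, 1 was called higher and 4 lower in AM TRAC than in VM TRAC. LHX2 had 1 higher and 5 lower, ZNF503 1 and 8, and ZNF711 4 and 1. The ventricular-type myosin heavy chain MYH7 was lower in AM in all 4, by a log2 fold change of -3.36 ± 0.55 in TRAC (edgeR adjusted p = 0.000462) and -2.31 ± 0.52 in ZNF711 (edgeR adjusted p = 0.00684). The calcium pump gene ATP2A2 was the one called higher in TRAC, at 0.99 ± 0.18 (edgeR adjusted p = 0.000566), and was higher in ZNF711 by 1.52 ± 0.18 (edgeR adjusted p = 3.2e-06). Also lower in TRAC were NKX2-5, a cardiac transcription factor, and the Z-disc gene LDB3, at -0.96 ± 0.25 and -1.60 ± 0.43 (edgeR adjusted p = 0.0134 and 0.0202). Of 12 genes on a list of cardiomyocyte maturation, 1 was called higher and 6 lower in AM in TRAC. LHX2 had 1 and 5, ZNF503 1 and 6, and ZNF711 3 and 3. From TRAC to ZNF711 the median log2 fold changes were -1.26, -1.31, -1.36 and -0.07. The list summed to 452 to 1075 CPM in the AM libraries and 1189 to 3015 in the VM libraries. The TNNI3/TNNI1 ratio was higher in AM, and the maturity of the cultures was not tested.

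Set against the sum of those cardiomyocyte markers, some of the troponin differences narrowed. TTN and MYH6 weigh most in this sum, with medians of 10280 and 7624 CPM over all libraries, followed by ATP2A2 at 999. The list also holds MYH7, which itself differed between AM and VM. Whether the sum measures cardiomyocyte content was not tested. TNNI1 was at 21.1 ± 1.23 CPM per 1000 CPM of the markers in AM TRAC and 26.8 ± 9.78 in VM TRAC (SD, n = 3 each), and the ranges of 19.7 to 21.9 and 15.8 to 34.7 overlapped. TNNI3 was at 0.470 ± 0.138 against 0.160 ± 0.121 with no overlap. In ZNF711, TNNI1 was at 19.0 ± 3.22 in AM and 33.8 ± 8.96 in VM with no overlap, unlike on the CPM scale. TNNC1 there was at 4.33 ± 0.622 in AM and 6.0 ± 1.96 in VM with overlap, the reverse of its order in CPM, and TNNT2 was at 13.2 ± 6.38 and 10.7 ± 3.67, also with overlap. Groups that were apart in CPM also overlapped on this scale for TNNC1 in TRAC, at 2.29 to 3.57 in AM and 3.08 to 6.11 in VM, for TNNT3 in TRAC, at 0.10 to 0.105 and 0.0839 to 0.305, for TNNI1 in ZNF503, at 20.1 to 26.7 and 21.9 to 35.0, and for TNNT1 in LHX2, at 0.188 to 0.248 and 0.210 to 1.04. TNNI3 in LHX2, which overlapped in CPM, did not, at 0.151 to 0.323 and 0.0360 to 0.134. This scale was added after the values were seen.

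The comparison with TRAC asked how the targeted groups differ from their control within a condition. With edgeR over all groups, 0 of the 6 tested troponin genes were called in any of the 6 comparisons, and DESeq2 called 0 as well. At an unadjusted p below 0.05, 3 passed in VM ZNF711 (TNNI1, TNNI3 and TNNT2), 1 in AM ZNF711 (TNNC1) and 0 in the others. Of all genes, 9.4% passed at that level in VM ZNF711, 3.49% in AM ZNF711, 7.74% in AM LHX2, 1.74% in AM ZNF503, 2.61% in VM LHX2 and 1.55% in VM ZNF503. The share of all genes that edgeR called after adjustment was 0.0169% in VM ZNF711 and 0% in the 5 others. Of the 6 troponin genes, 0 had groups without overlap in AM ZNF503, VM LHX2 and VM ZNF503, against 8.55%, 5.12% and 4.32% of all genes. The 2 differences farthest from 0 were in VM ZNF711, those of TNNI3 at -1.41 ± 0.47 (edgeR adjusted p = 0.307) and TNNT2 at -1.14 ± 0.54 (edgeR adjusted p = 0.531). TNNT1 was 0.90 ± 0.46 in that group (edgeR adjusted p = 0.558). There TNNI1 was -0.62 ± 0.25 (edgeR adjusted p = 0.427). TNNI3 was the one member whose VM ZNF711 and VM TRAC libraries did not overlap, against 10.1% of all genes. In AM ZNF711, TNNC1 was 0.91 ± 0.38 above AM TRAC with no overlap (edgeR adjusted p = 1), against 11.7% of all genes without overlap. In AM LHX2, TNNI1 at -0.43 ± 0.25 and TNNI3 at -0.73 ± 0.41 lay below AM TRAC with no overlap (edgeR adjusted p = 0.709 and 0.7), against 19% of all genes.

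**Figure D4:**
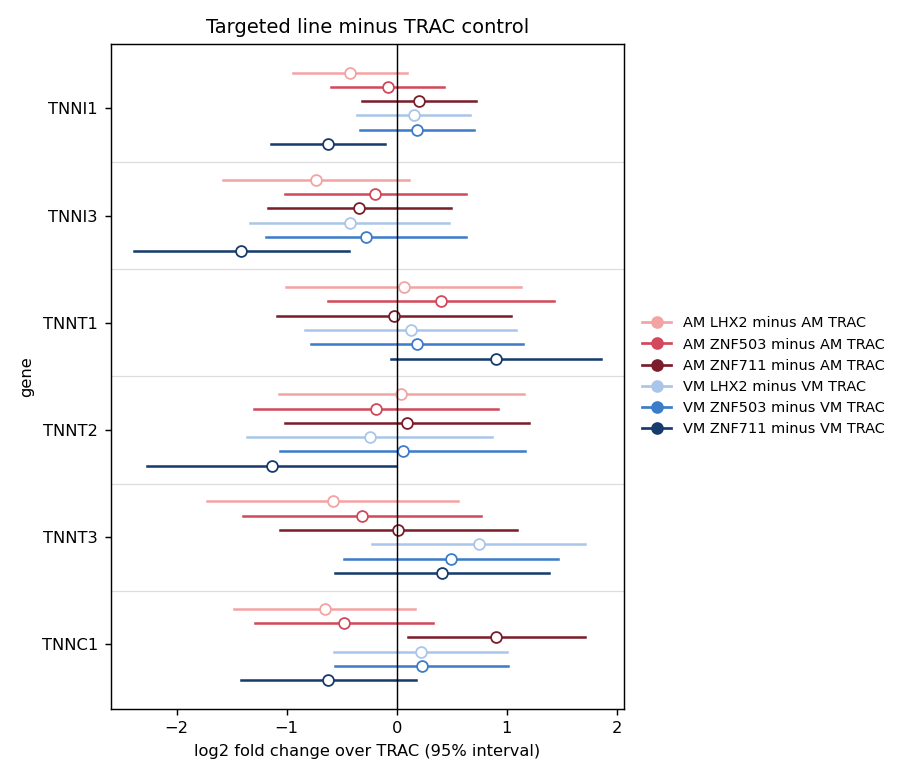
Fitted log2 fold change of each targeted group over the TRAC group of the same condition (x axis) for the 6 tested troponin genes, with 95% intervals, in red shades for AM and blue shades for VM. No point is filled, as none had an edgeR adjusted p below 0.05, and the 2 points farthest from 0 are those of TNNI3 and TNNT2 in VM ZNF711.

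With the replicate number as a block TNNT2 was called in VM ZNF711, at -1.12 ± 0.24 (edgeR adjusted p = 0.0261), where 2.27% of all genes were. When each condition had its own block, TNNT2 at -1.10 ± 0.11 (edgeR adjusted p = 3.37e-08) and TNNI1 at -0.58 ± 0.12 (edgeR adjusted p = 0.00227) were called, where 8.38% of all genes were, and so was TNNI1 in AM LHX2 at -0.43 ± 0.12 (edgeR adjusted p = 0.042), where 3.11% were. Without the libraries numbered 3, a choice made after the values were seen, TNNT1 was called higher in VM ZNF711 than in VM TRAC at 1.60 ± 0.39 (edgeR adjusted p = 0.0198), where 4.97% of all genes were called. In that comparison the cardiomyocyte marker sum was 12588 to 18708 CPM in VM ZNF711 and 16604 to 44015 in VM TRAC, and the hepatic sum 7016 to 19394 against 2346 to 18355. All 15 cardiomyocyte markers had a fitted value below 0 and all 8 hepatic markers above 0, with 0 called in either list. Per 1000 CPM of the cardiomyocyte markers TNNT2 was at 10.7 ± 3.67 in VM ZNF711 and 11.7 ± 2.52 in VM TRAC. TTN and MYH6 weigh most in that marker sum, and the part of cell composition in these differences was not tested.

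Whether the AM to VM difference itself depended on the genotype was tested as an interaction with TRAC. By edgeR and by DESeq2, 0 of the 6 genes were called for LHX2, ZNF503 or ZNF711, where edgeR called 0%, 0% and 0.00564% of all genes. At an unadjusted p below 0.05, TNNI1 and TNNC1 passed for ZNF711, where 6.4% of all genes did, and 0 for LHX2 and ZNF503, where 3.72% and 1.95% did. The largest estimate was that of TNNC1 for ZNF711, 1.53 ± 0.54 (edgeR adjusted p = 0.607), followed by TNNT3 for LHX2, -1.33 ± 0.73 (edgeR adjusted p = 1), and TNNT2 for ZNF711, 1.23 ± 0.75 (edgeR adjusted p = 0.896). For TNNI1 and ZNF711 it was 0.83 ± 0.35 (edgeR adjusted p = 0.721). So in this fit the AM to VM differences of TNNI1 and TNNC1 in ZNF711 were not shown to differ from those in TRAC. ZNF711 was not tested against LHX2 or ZNF503. When each condition had its own block, the interactions of TNNI1, 0.78 ± 0.17 (edgeR adjusted p = 0.00822), and TNNT2, 1.14 ± 0.15 (edgeR adjusted p = 4.51e-05), were called for ZNF711, where 2.54% of all genes were. Without the libraries numbered 3, those of TNNT1, -2.57 ± 0.59 (edgeR adjusted p = 0.0294), and TNNC1, 2.0 ± 0.46 (edgeR adjusted p = 0.044), were called, where 1.61% of all genes were.

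The troponin genes differed in how strongly they followed the replicate number. In the fit with the number as a block, TNNT2 was lower in number 2 than in number 1 by a log2 value of -0.88 ± 0.15 (edgeR adjusted p = 0.000577) and lower in number 3 by -1.14 ± 0.15 (edgeR adjusted p = 3.61e-05), where 21.5% and 33.5% of all genes were called. TNNI1 was higher in number 2 than in number 1 by 0.46 ± 0.12 (edgeR adjusted p = 0.0133) and did not differ beyond its error in number 3, at 0.11 ± 0.12 (edgeR adjusted p = 0.523). TNNT1 was at 0.59 ± 0.25 in number 3 against number 1 (edgeR adjusted p = 0.0673). TNNI3, TNNT3 and TNNC1 had edgeR adjusted p of 0.283 to 0.956 in both terms. TNNT2 stood at 112 to 144 counts per 100 TNNI1 counts in the 4 AM libraries numbered 1 and at 39.2 to 88.8 in the 8 others, and at 63.4 to 87.7 in the 4 VM libraries numbered 1 and 19.6 to 35.3 in the 8 others. The labels do not say what the number stands for, and the cause was not tested.

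**Figure D5:**
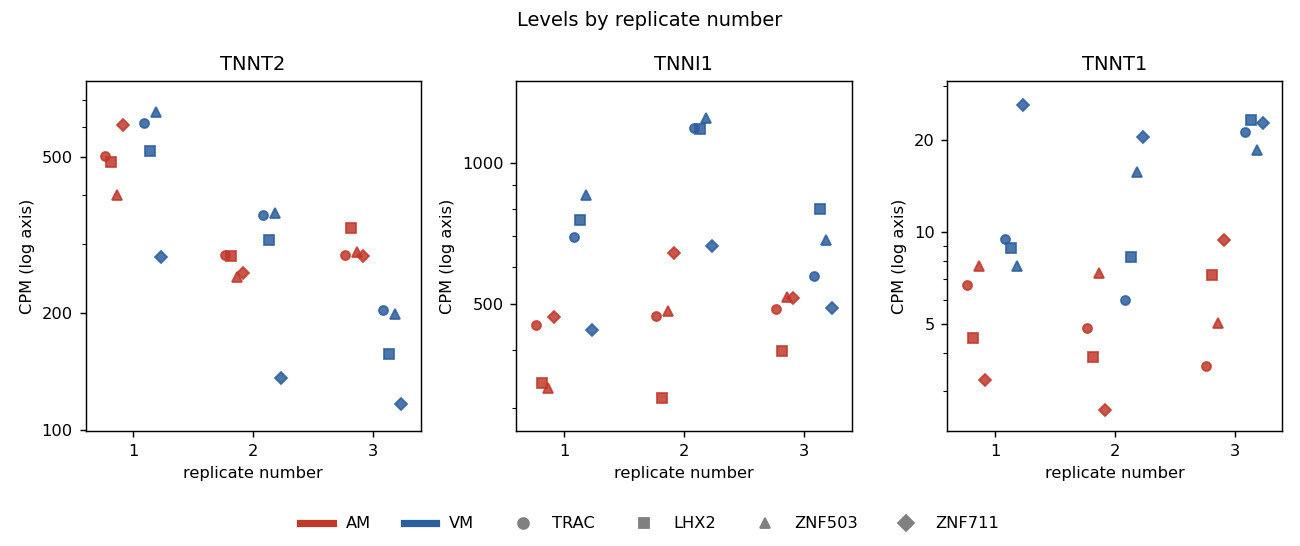
Levels of TNNT2, TNNI1 and TNNT1 in CPM (log axis) by replicate number (x axis), for AM in red and VM in blue, with marker shapes for the targeted gene. TNNT2 is highest in number 1 in all 8 groups, TNNI1 is highest in number 2 in the 4 VM groups, and TNNT1 is at 18.5 to 23.2 CPM in the 4 VM libraries numbered 3.

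By Pearson's r of log2 CPM over the 24 libraries, among 11428 genes with a mean log2 CPM of at least 3, the genes most like TNNI1 were PGM5 at 0.95, MTUS2 at 0.94 and HSPB7 at 0.94. Those most like TNNC1 were the atrial-type myosin light chain MYL7 at 0.94, POPDC2 at 0.94 and HSPB7 at 0.93. Those most like TNNT2 were GABBR1 at 0.95, CFLAR at 0.94 and ECHDC2 at 0.94. For TNNT1 they were EPHA4 at 0.92, the gap junction gene GJA1 at 0.90 and POLR3D at 0.90, for TNNI3 CHN2, CRTC3 and VASH1 at 0.85 each, and for TNNT3 TBX2-AS1 at 0.88, PLPPR4 at 0.87 and PPARGC1B at 0.86. Within 1 condition the 9 partners of TNNI1, TNNC1 and TNNT2 had r of 0.77 to 0.99 in AM and in VM apart, but most were no longer the genes most alike. For TNNI1, PGM5, MTUS2 and HSPB7 ranked 65, 516 and 676 in AM and 204, 158 and 1 in VM. The partners of TNNI3 had r of 0.13 to 0.76, those of TNNT3 0.41 to 0.71 and those of TNNT1 0.34 to 0.90 within a condition. The libraries share genotypes, conditions and numbers, so these values describe this set of libraries only.

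By group mean the order of levels ran as follows. For TNNI1, VM ZNF503, VM LHX2 and VM TRAC were highest, at 931 ± 289, 913 ± 234 and 821 ± 325 CPM, and AM LHX2 was lowest at 351 ± 42.5. TNNC1 had the same groups at both ends, from 169 ± 63.7 in VM ZNF503 to 41.5 ± 13.2 in AM LHX2, with AM ZNF711 next after the 3 other VM groups at 123 ± 8.97. Neighbours in the order overlapped in their ranges for TNNI1, TNNI3, TNNT2 and TNNC1. They separated for TNNT1 between VM ZNF711, at 23.1 ± 2.74, and VM ZNF503, at 14.0 ± 5.58, and for TNNT3 between VM TRAC, at 5.05 ± 1.35, and AM ZNF711, at 2.32 ± 0.205.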

How the data were processed

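The deposited values were whole-number gene counts that the authors made per library. STAR and GRCh38 are named in the submitters' processing notes. The counting program and its strand setting are not given in the sources used here, and the labels name both polyA RNA and a ribosomal RNA depletion kit. Of 62757 rows, 62686 paired with a symbol, 0 count columns were left unmatched, and gene models came from GENCODE 29.

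Genes were kept by filterByExpr (17724) and compared by the quasi-likelihood test of edgeR 4.0.16 in R 4.3.3, with TMM factors of 0.905 to 1.08 and 1 mean per group over all 24 libraries, which left 16 residual degrees of freedom. P-values were Benjamini-Hochberg adjusted over all tested genes in each of 13 comparisons, and a gene was called below 0.05. Log2 CPM used a prior count of 2. The ratio of TNNI3 to TNNI1 counts was tested by exact permutation (scipy 1.17.1 for intervals). The script was tested on simulated data.

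Same-numbered libraries deviated together from their group means, with r of 0.125 to 0.786 in 30 of 30 pairs over 11428 genes. The number thus paired the libraries in the data, although the labels do not say so. The main fit had no term for the number and did not use this pairing, which entered only through the replicate blocks. Alternatives were DESeq2 1.42.0, other scalings and filters, only the groups compared, replicate blocks and fits without single libraries. The named genes were the 8 troponins, up to 4 called genes with the largest change from the thin filament and cardiomyocyte lists in AM TRAC against VM TRAC and in comparisons that called a troponin, and 3 genes most like each tested troponin. Members and lists were chosen with earlier results of these data known.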

Additional observations from a re-analysis of the deposited data

Results flagged for a closer look

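The difference between AM and VM differed between ZNF711 and TRAC by an interaction test in the fit with a replicate block in each condition, for TNNI1 by 0.78 on the log2 scale (edgeR adjusted p = 0.00822) and for TNNT2 by 1.14 (edgeR adjusted p = 4.51e-05). Without the block the values were 0.83 and 1.23, with edgeR adjusted p of 0.721 and 0.896. Groups of 3 libraries are too small for a test of single outlying libraries.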

How the results depend on the processing

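Of 400 fold changes refitted with all libraries under other settings, 361 kept direction and side of the threshold, 14 lost a call, 23 gained one and 2 reversed, both of them TNNT3 in AM ZNF711 against AM TRAC (-0.0022 with library size alone, -0.0085 without a filter, 0.015 in the report). In AM TRAC against VM TRAC the number of genes called fell from 2 to 1 with library size alone (TNNI3), 0 with a filter of 1 CPM in 3 libraries and 1 with only the groups compared, which lost TNNI1 and TNNI3 (edgeR adjusted p = 0.0961 and 0.0767) and gained TNNC1 (0.0399). In ZNF503 it fell from 4 to 1, TNNI1, with only the groups compared. Without a filter TNNI3 was lost in TRAC (edgeR adjusted p = 0.0786). Without a filter, 1 was called in AM ZNF711 against AM TRAC, 3 in VM ZNF711 against VM TRAC and 2 in the ZNF711 interaction, against 0 in each. That fit had smaller errors, as for TNNC1 in LHX2 at 0.19 against 0.40 in the main fit. The share of all genes called under these scalings, filters and subsets is not given here, so the gained calls are not read as particular to the troponin genes. With the replicate block, which pairs libraries by number, 1 was called in VM ZNF711 against VM TRAC, and with a block in each condition 2, with 2 in the ZNF711 interaction and 1 in AM LHX2 against AM TRAC. The blocks changed no other count by more than 1.5 times. The cause was not tested.

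Leaving out libraries gave 0 to 2 calls in TRAC, 1 to 3 in ZNF503, 0 to 1 in VM ZNF711 against VM TRAC and 0 to 2 in the ZNF711 interaction, the highest of the last pair without number 3. Shares of all genes called are given above for the fits without number 3, not for those without a single library. Of 50 reported fold changes, 42 kept their sign. For AM over VM, TNNT2 ran from -0.47 to 0.35 in TRAC, -0.18 to 0.67 in LHX2 and -0.70 to 0.16 in ZNF503, and TNNI1 from -0.10 to 0.24 in ZNF711. In AM ZNF711 against AM TRAC, TNNT1 ran from -0.97 to 0.29, TNNT2 from -0.41 to 0.43 and TNNT3 from -0.026 to 0.15, and in VM ZNF503 against VM TRAC TNNT3 ran from -0.21 to 0.88. The log2 TNNI3/TNNI1 count ratio, AM TRAC minus VM TRAC, ran from 1.74 to 2.63, and the log2 TNNI3/TNNI1 count ratio, AM minus VM over 4 genotypes, from 2.16 to 2.64. Against TRAC it ran from -0.74 to 0.038 in AM LHX2, -0.29 to 0.074 in AM ZNF503 and -1.08 to 0.033 in VM ZNF503.

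Depth limits TNNI3 and TNNT3, with as few as 6 and 2 counts in a library, and TNNI2 and TNNC2, which were not tested.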
